A study of Mus musculus with 2 samples.

Results

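Binding of the coactivator p300 was examined at 5 gene loci of the blood vessel lining, Kdr, Flt1, Tek, Fli1 and Erg, in heart and midbrain tissue, both taken from CD-1 mice at embryonic day 11.5. Each locus was taken as a fixed window of build mm9, from 300.0 to 500.0 kb wide and 1.95 Mb in all, and every p300 peak of either tissue's list with its midpoint in a window was counted. The windows held 4 of the 3597 heart peaks and 0 of the 2786 midbrain peaks. Each tissue was represented by 1 library made from about 150 pooled embryos of both sexes, with no genetic change or treatment named, so no difference between tissues has a replicate check and every statement about a tissue is one about its library. Aligned reads numbered 1303861 for heart and 5869671 for midbrain. Scaled to library size (rpm, the reads per 1000000 aligned reads), 1 heart read is worth 0.767 rpm and 1 midbrain read 0.170 rpm. Where no read was seen, up to 3 are allowed, which is 2.30 rpm for heart and 0.511 rpm for midbrain. The 95% intervals and these limits cover counting error alone, because each tissue has 1 library. Amplified reads that carry no molecular identifier may repeat 1 molecule, so even this error may be understated. The shared protocol names forebrain, midbrain and limb but not heart, and nothing here measures expression, so the tissues were not checked against expressed markers.

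p300 is a histone acetyltransferase that transcription factors recruit to active enhancers, and its binding is widely used to find such elements. Kdr and Flt1 encode receptors for vascular endothelial growth factor: Kdr carries the main growth signal in endothelial cells, while Flt1 binds the ligand tightly and can act as a decoy. Tek encodes the receptor for angiopoietins, which steadies vessels as they mature. Fli1 and Erg encode transcription factors of the ETS family that are active in endothelial and blood cells and take part in switching on endothelial genes. In the RefSeq annotation of GRCm38.p6, the nearest protein-coding genes by start were Kit and Srd5a3 for Kdr, Pan3 and Pomp for Flt1, Lrrc19 and Eqtn for Tek, Kcnj1 and Ets1 for Fli1, and Kcnj15 and Ets2 for Erg. Heart and midbrain both contain vessels among many other cells, and fewer endothelial cells cannot be told apart from less binding per cell.

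The starts of the receptor genes are shown because ETS factors such as Fli1 and Erg bind DNA at GGAA cores, and such cores can be looked for in the letters themselves. Each sequence runs 5′ to 3′ from 250 bases before to 50 after the RefSeq start, in build GRCm38.p6, whose coordinates cannot be set beside the mm9 positions of the peaks. Capitals mark matches to the longer motifs named next, on either strand. The motifs searched were CCGGAA, here called the plain ETS core, and CAGGAA, here called the variant ETS core. The others were ACAGGAA, the core of a joint FOX and ETS site that contains the variant core, and the GATA motif, spelled AGATAA. The Kdr start lies on the minus strand at chr5:75978406-75978705, the Tek start on the plus strand at chr4:94739039-94739338 and the Flt1 start on the minus strand at chr5:147725962-147726261.
Kdr: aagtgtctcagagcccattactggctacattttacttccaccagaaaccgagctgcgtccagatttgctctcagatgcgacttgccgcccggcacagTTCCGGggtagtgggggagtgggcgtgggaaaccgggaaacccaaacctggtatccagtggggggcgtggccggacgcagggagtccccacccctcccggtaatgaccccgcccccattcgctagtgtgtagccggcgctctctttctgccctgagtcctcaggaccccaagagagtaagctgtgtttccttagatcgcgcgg
Tek: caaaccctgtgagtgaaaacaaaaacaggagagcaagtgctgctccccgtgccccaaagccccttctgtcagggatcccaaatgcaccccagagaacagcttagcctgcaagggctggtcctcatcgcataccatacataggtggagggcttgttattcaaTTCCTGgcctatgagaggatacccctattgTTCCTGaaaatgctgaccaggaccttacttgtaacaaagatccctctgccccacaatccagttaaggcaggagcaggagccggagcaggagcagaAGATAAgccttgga
Flt1: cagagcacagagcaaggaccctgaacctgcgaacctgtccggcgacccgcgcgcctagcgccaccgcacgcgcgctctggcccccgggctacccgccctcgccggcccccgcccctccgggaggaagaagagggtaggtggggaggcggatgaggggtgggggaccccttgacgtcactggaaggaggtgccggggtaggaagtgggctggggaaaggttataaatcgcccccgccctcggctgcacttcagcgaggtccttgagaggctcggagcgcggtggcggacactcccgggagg
The Kdr sequence held 1 match, to the plain ETS core on the reverse strand, beginning 153 bases before the start. The Tek sequence held the variant ETS core on the reverse strand beginning 89 and 59 bases before the start, and the GATA motif 36 bases after it. None of these longer motifs was found in the Flt1 sequence, which had the highest G and C content of the 3 printed (70.7%, against 60.7% for Kdr and 52.0% for Tek). The 4 letters GGAA alone, on either strand, stood 5 times in the Kdr sequence, 4 times in the Flt1 sequence and 2 times in the Tek sequence, and 96.0% of all promoters of the table hold them. Of the 3 Erg starts in the table, 1 held the variant ETS core and the GATA motif and the other 2 held no match, and Fli1 is named only. Over all 32851 promoters of the table, 14.9% held the plain core, 30.6% the variant core, 8.67% the joint site and 11.2% the GATA motif, so matches at 2 of the 3 receptor genes are a description of these letters and not of binding.

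The first question was how many p300 peaks each locus held. Erg held 2 heart peaks, Kdr and Fli1 held 1 each, and Flt1 and Tek held none. This amounts to 2.05 heart peaks per Mb, against 1.36 per Mb for the whole heart list over chromosomes 1 to 19 and X, at which the windows would hold 2.66. The midbrain list has 1.06 peaks per Mb, at which the windows would hold 2.06, and none was listed there. Windows without peaks were common: of 7215 tiles of 350 kb along the genome, 71.9% held no heart peak, 77.0% no midbrain peak and 58.7% neither.

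Peaks outside the windows showed how the edges bear on these numbers. The closest excluded heart peak lay 31.5 kb outside the Erg window (rank 2343, 5 heart reads and 1 midbrain read), and the next 72.9 kb outside the Tek window (rank 1766, also 5 and 1 reads). For Flt1, Fli1 and Kdr the nearest excluded heart peaks were 433.8, 370.0 and 859.9 kb away. The closest midbrain peak lay 58.9 kb outside the Flt1 window (rank 2180, 11 midbrain reads and 0 heart reads), followed by 248 kb for Fli1 and 595 kb for Kdr. From the Erg and Tek windows the nearest midbrain peak was more than 1 Mb away, at 1029 and 2160 kb. The Kdr and Fli1 heart peaks lay 38.1 and 45.7 kb inside their window edges, so windows narrowed by 50 kb on each side held only the 2 Erg peaks, and windows widened by 50 kb held 5 heart peaks and still no midbrain peak.

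The 4 heart peaks rested on few reads. Each held exactly 5 heart reads (3.83 rpm), as did 42.8% of the heart list, whose median is 6 reads and whose best peak held 33. Their ranks of 2330, 2760, 2989 and 3033 of 3597 put them in the weaker part of the list, with 64.7% to 84.3% of heart peaks ranked better. Widths ran from 451 to 657 bp, against a list median of 662 bp. The height of the deposited coverage was 3 or 4 overlapping reads, where the list median is 4. In midbrain reads the same peaks held 0, 1, 2 and 4, against a list median of 2.

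**Figure D1:**
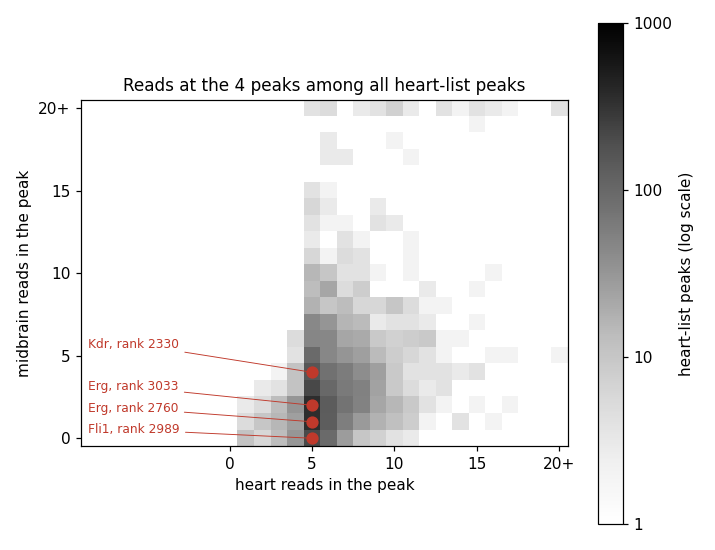
Heart reads (x axis) and midbrain reads (y axis) in each of the 3597 heart-list peaks, with grey shade for the number of peaks on a log scale and red points for the 4 peaks of the endothelial windows; 20+ holds all higher counts. The red points share 5 heart reads and hold 0 to 4 midbrain reads, inside the densest part of the list.

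The Kdr peak lay at chr5:76461672-76462122 (mm9), rank 2330, 112 kb to the right of the window centre. It held 5 heart reads and 4 midbrain reads, or 3.83 and 0.681 rpm, and the heart over midbrain ratio was 5.63 (interval 1.21 to 28.4). Within 1 kb around its midpoint the ratio was 2.81 and its interval included 1 (0.724 to 9.75), and with reads moved by 150 bp it was 11.3 (interval 1.84 to 118). Among the 4 peaks it had the most midbrain reads and the lowest ratio.

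The Fli1 peak lay at chr9:32453998-32454645 (mm9), rank 2989, 129 kb to the right of the window centre. It held 5 heart reads and 0 midbrain reads, so its ratio is given only by the lower end of the interval, 4.13. That lower end was 3.28 within 1 kb and 2.52 with reads moved by 150 bp. The count of 0 midbrain reads holds for the listed peak as reads are placed here. The deposited midbrain coverage, from lengthened reads, reached 1 within the peak. The midbrain level there was not detectable at this depth, which allows up to 0.511 rpm.

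The Erg peaks lay at chr16:95597696-95598302 (rank 2760) and chr16:95612489-95613145 (rank 3033), both mm9, with midpoints 14.8 kb apart. The first held 5 heart reads and 1 midbrain read, a ratio of 22.5 (interval 2.52 to 1065). The other held 5 heart reads and 2 midbrain reads, a ratio of 11.3 (interval 1.84 to 118). Within 1 kb both ratios were 7.50 (interval 1.46 to 48.3), and with reads moved by 150 bp they were 11.3 and 7.50. From the deposited coverage they were 12.8 and 6.89. No annotation of build mm9 was used here, so none of the 4 peaks is placed in an exon, intron or promoter.

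All 4 intervals lay on the heart side, as did those of 90.0% of all heart-list peaks and 89.2% of those with 5 heart reads. The peaks were listed from these heart reads, so nothing is read from this direction. Together the 4 peaks held 20 heart and 7 midbrain reads, a ratio of 12.9 (interval 5.22 to 36.0), and the whole heart list had a ratio of 7.96, inside that interval. Counted within 1 kb around each midpoint, the pooled ratio was 6.30 (interval 3.10 to 13.1), and that of the whole list 6.03. When midbrain reads were drawn down to the number of heart reads, the pooled ratio was 5.0 (interval 1.67 to 20.1), and the interval of no single peak lay on the heart side. The whole heart list was not analysed after this step, so the shares of 90.0% and 89.2% cannot be set beside it.

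**Figure D2:**
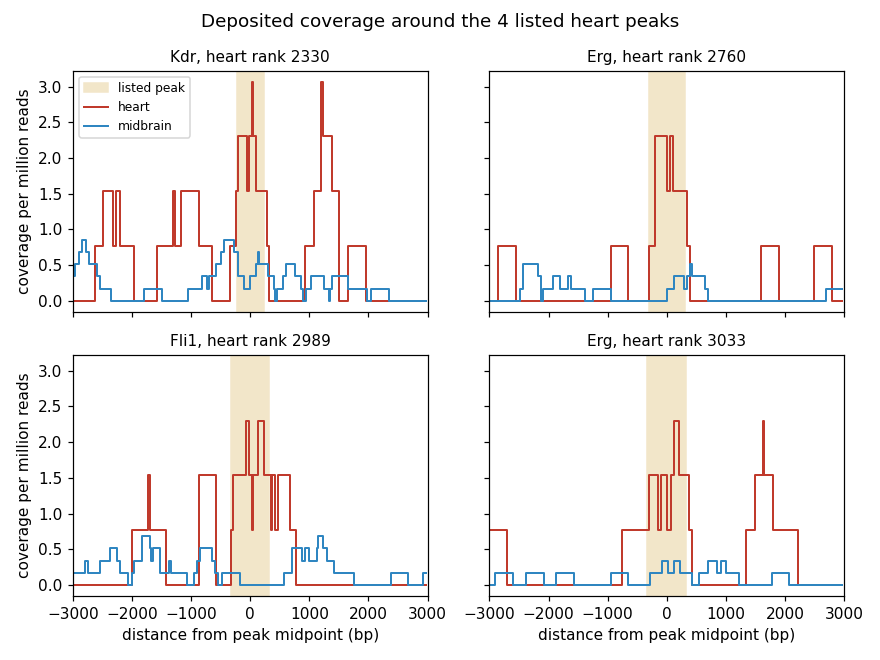
Deposited coverage scaled to aligned reads as for rpm (y axis) of the heart (red) and midbrain (blue) libraries within 3 kb of the midpoint of each of the 4 heart peaks (x axis, bp), with the listed peak shaded. Heart coverage reaches 3.07 in the Kdr peak and 2.30 in the other 3, and the midbrain maximum within each shaded peak is lower.

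Peak caller and control are not given, so whether midbrain reads entered the heart list in any way is not known. The density of midbrain reads at the heart peaks was compared with stretches 5 to 10 kb away on each side. At the Kdr peak it was 3.70 times the density of the flanks (interval 0.932 to 10.8), from 4 reads against 24. At the Erg peaks it was 0.969 times (interval 0.0232 to 6.18) and 1.13 times (interval 0.130 to 4.49), and the Fli1 peak held 0 midbrain reads against 27 in its flanks, with an upper bound of 2.26. Thus 0 of 4 intervals lay above 1, where 16.0% of all heart-list peaks and 12.7% of those with 5 heart reads had such an interval. Pooled, midbrain reads were 1.25 times as dense as in the flanks (interval 0.488 to 2.67). Without the Kdr peak, a comparison that was not planned, they were 0.663 times as dense (interval 0.134 to 2.02). For the whole heart list this value was 1.89, which lies inside both of these intervals. Heart reads were 7.69 times as dense at the 4 peaks as in their flanks (interval 4.30 to 13.3), a value fixed in part by the listing, against 9.62 for the whole list, and 4.77 times (interval 2.70 to 8.20) within 1 kb. All 4 intervals of this measure lay above 1, as did 97.2% of those of the list.

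The Kdr call depended on where the reads are placed and counted. With reads left at their 5′ ends the midbrain density at the peak was 4.62 times the flanks (interval 1.38 to 12.4), within 1 kb it was 3.48 times (interval 1.35 to 8.05), and with flanks 10 to 20 kb away 4.22 times (interval 1.10 to 11.6). With reads moved by 150 bp it was 1.85 times (interval 0.212 to 7.44). The cause was not tested.

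Bins of 1 kb were laid along the windows without use of the lists. The heart peaks were listed from these heart reads, so a heart maximum at a peak follows in part from the listing. Whether midbrain reads also entered that listing is not known. In the Kdr window the bin chr5:76461001-76462000, which holds the midpoint of the heart peak, had the most heart reads (6) and also the most midbrain reads (10) of the window's 300 bins, whose means were 0.807 and 2.83. The next bins held 5 heart and 9 midbrain reads. When a 1 kb frame was moved along the window in steps of 100 bp, the midbrain maximum of 12 reads occurred at a single place, which overlapped the same peak. The heart maximum of 6 reads was reached at several places of that frame, up to 123 kb apart, and not all of them overlapped the peak. Deposited midbrain coverage reached 5 at -450 to -300 bp from the peak midpoint, outside the listed peak. Within the listed peak it reached 4, and only 4 midbrain reads were counted in that peak. A further bin with 5 heart and 5 midbrain reads lay just beyond it at chr5:76463001-76464000. This bin was singled out after its values had been seen. Of the 817 tiles of 350 kb with 1 heart peak and no midbrain peak, 4.16% had their fullest midbrain bin at the peak's midpoint.

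At Fli1 and Erg the fullest bins of the libraries lay apart. In the Fli1 window the heart maximum was 7 reads at the listed peak (chr9:32454001-32455000, with 1 midbrain read), while 2 other bins shared the midbrain maximum of 11 reads. In the Erg window the heart maximum was 6 reads at the peak of rank 3033 (chr16:95612001-95613000, with 3 midbrain reads), and the midbrain maximum was 11 reads at chr16:95643001-95644000, which held 3 heart reads. With the moving 1 kb frame, 6 heart reads were reached in the Erg window at places up to 157.8 kb apart, and not all of them overlapped a listed peak. In the Flt1 window the fullest heart bin had 5 reads and the fullest midbrain bin 10, and in the Tek window these numbers were 4 and 9.

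Sites that reach the read number of a listed peak without being listed were counted next. The minimum was the lower quartile of reads per listed peak, that is 5 heart reads or 13 midbrain reads, in 1 kb bins away from any peak. In the heart 6 of 1754 bins reached it (0.342%), against 0.293% of all such bins of the genome: 3 in the Erg window, 2 in the Fli1 window and 1 in the Flt1 window. Each held exactly 5 heart reads. The Flt1 bin, at chr5:148469001-148470000, lay 5.5 kb from the window centre and held 1 midbrain read. The 2 Fli1 bins held 0 and 4 midbrain reads and the 3 Erg bins 4, 2 and 6. In the midbrain no bin of the windows reached 13 reads, against 0.108% of all such bins, and the fullest held 11. The heart share was close to that of the genome at large.

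**Figure D3:**
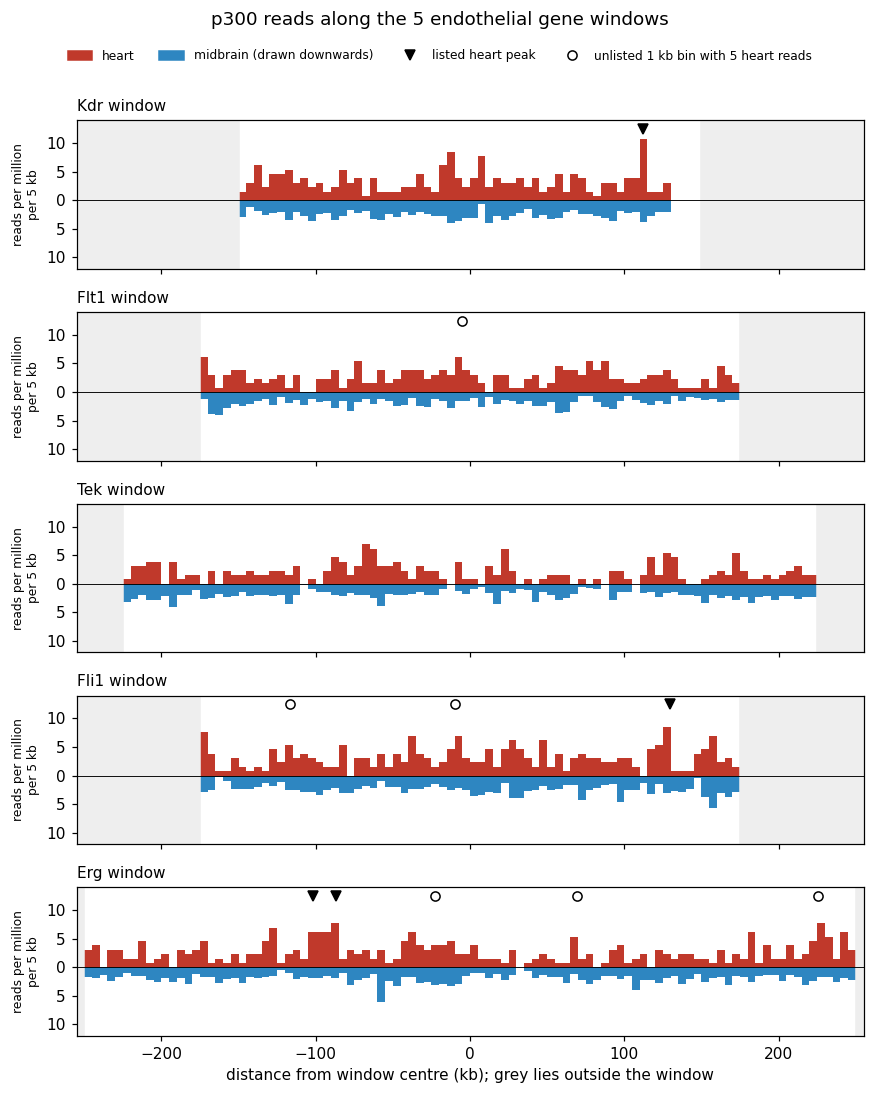
Reads in rpm in 5 kb steps (y axis, heart upwards in red, midbrain downwards in blue) along each window (x axis, kb from the window centre; grey lies outside), with triangles for listed heart peaks and circles for unlisted 1 kb bins with 5 heart reads. Both libraries are spread over each window with few steps standing out, and the right end of the Kdr window holds no read of either library.

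Reads over the whole windows were then compared, since they rest on far higher counts. The Kdr window held 242 heart and 850 midbrain reads, or 186 and 145 rpm, and the heart over midbrain ratio was 1.28 (interval 1.11 to 1.48). The Flt1 window held 239 and 747 reads, or 183 and 127 rpm, a ratio of 1.44 (interval 1.24 to 1.67). The Tek window held 225 and 1024 reads, or 173 and 174 rpm, a ratio of 0.989 (interval 0.852 to 1.14). Flt1 had the highest ratio of the receptor loci and Tek the lowest, and with 1 library per tissue this order has no replicate check.

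The Fli1 window held 282 heart and 1023 midbrain reads, or 216 and 174 rpm, a ratio of 1.24 (interval 1.08 to 1.42). The Erg window held 339 and 1165 reads, or 260 and 198 rpm, a ratio of 1.31 (interval 1.16 to 1.48). The intervals of these ETS factor loci overlapped. The deposited coverage summed over each window gave ratios of 1.28, 1.44, 0.993, 1.24 and 1.31 for Kdr, Flt1, Tek, Fli1 and Erg, and comes from the same reads.

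Intervals of 4 of the 5 windows lay on the heart side and none on the midbrain side, where 26.4% of all 350 kb tiles lay on the heart side and 38.7% on the midbrain side. All windows together had a ratio of 1.24 (interval 1.17 to 1.32). Tiles varied far more than counting error, with a median of 0.927 and values from 0.580 to 1.61 between the 5th and the 95th percentile, and all 5 windows lay within that range. The ratio exceeded that of 89.9% of tiles at Flt1, 83.5% at Erg, 81.9% at Kdr, 79.0% at Fli1 and 56.5% at Tek. Tiles with a heart peak and no midbrain peak had a median ratio of 1.28, and tiles with no peak 0.815. Heart reads were also denser at Kdr and Fli1, at 61.9 and 61.8 rpm per 100 kb, than in 91.2% and 91.0% of tiles, and midbrain reads were denser there than in 87.9% and 91.2%.

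**Figure D4:**
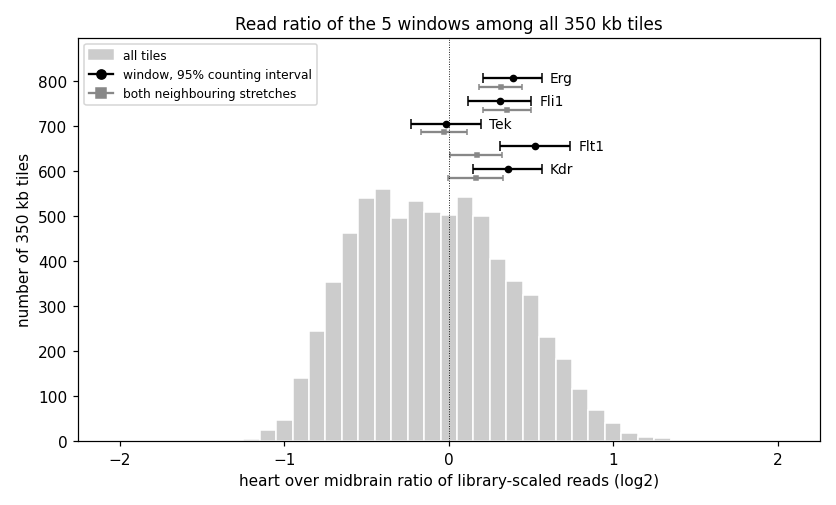
Number of 350 kb tiles (y axis) by log2 of the heart over midbrain ratio of library-scaled reads (x axis), with each window (black, 95% counting interval) and the stretches of equal width on both its sides (grey) drawn above. All windows fall inside the spread of the tiles, and Flt1 alone has an interval of its ratio to its neighbours that excludes 1 (1.06 to 1.54). How often tiles differ in this way from their own neighbours was not analysed. The left stretch beside Flt1 held 2 listed midbrain peaks.

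The stretches of equal width on both sides of each window gave a local comparison, added after the window values had been seen. They had ratios of 1.12 at Kdr, 1.12 at Flt1, 0.982 at Tek, 1.28 at Fli1 and 1.25 at Erg. The window's ratio was 1.28 times that of its neighbours at Flt1 (interval 1.06 to 1.54). It was 1.14 times at Kdr (interval 0.946 to 1.38), 1.01 times at Tek (interval 0.844 to 1.20), 0.970 times at Fli1 (interval 0.820 to 1.15) and 1.05 times at Erg (interval 0.901 to 1.23). In these 5 comparisons, which are not adjusted for their number, 1 interval excluded 1. How often tiles of the genome differ in this way from their own neighbours was not analysed here, so nothing particular to Flt1 is read from it. The neighbours differed in listed peaks. The left stretch beside Flt1 held 2 midbrain peaks and the right one beside Fli1 held 1. Heart peaks numbered 2 in the right stretch beside Tek, and 1 and 2 in the left and right stretches beside Erg. Taken singly, both stretches beside Fli1 had intervals on the heart side, as did the right one beside Flt1, Tek and Erg, while the left one beside Tek lay on the midbrain side.

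Within the windows the heart side was spread over several places. Of 39 stretches of 50 kb, 34 (87.2%) had a ratio above 1, against 41.6% of all 50 kb tiles, and the interval of 10 (25.6%) lay on the heart side, against 12.3% of the tiles. The stretches were cut from windows whose own ratios were already known. Flt1 had 3 such stretches of 7, Erg 3 of 10, Kdr 2 of 6, Fli1 1 of 7 and Tek 1 of 9. The highest value was 1.88 (interval 1.26 to 2.74) at Flt1, 150 to 200 kb from the window start, with 40 heart and 96 midbrain reads, and this stretch holds the unlisted Flt1 bin. The Erg stretches that contain the listed peaks, 100 to 150 kb and 150 to 200 kb from the window start, had ratios of 1.84 (interval 1.24 to 2.68) and 1.52 (interval 1.07 to 2.14). The stretch with the Kdr peak had 1.66 (interval 1.07 to 2.51), and that with the Fli1 peak 1.08 (interval 0.752 to 1.51), which includes 1. The stretches with peaks include the heart reads from which those peaks were listed, so their ratios follow in part from the listing. At Tek the values ran from 0.519 (interval 0.260 to 0.947) to 1.66 (interval 1.15 to 2.36). The lowest was the only 1 of the 39 stretches with an interval on the midbrain side, against 13.0% of all 50 kb tiles.

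A part of the Kdr window held no reads. From 76477717 to 76528624 on chromosome 5 (mm9), 50.9 kb, no read of either library began, and 22.3 kb of this lay in the window. Over the rest of the window, 278 kb, the density was 66.8 rpm per 100 kb for heart reads and 52.1 for midbrain reads. The longest such stretch of the other windows was 8.92 kb, at Erg. Whether p300 is bound in the empty stretch was not analysed here.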

How the data were processed

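p300 binding was measured by chromatin immunoprecipitation and sequencing of 36 bp reads, per the labels' protocols. The authors deposited, per tissue, aligned reads on mm9 (a count of 1 per line, lengthened to 300 bp), a coverage signal in 25 bp steps from unique reads, not scaled to library size per the file headers, and a ranked peak list without scores. Peak caller, thresholds and control are not given in the sources used here. The members and lists were chosen with earlier results of these data known.

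Reads were placed by moving 5′ ends by 23 bp (heart) and 35 bp (midbrain), which is 0.5 of the distance (46 and 70 bp) between the strands at which reads in peaks coincided most often, among distances of 46 to 490 bp. The heart estimate sits at that lower limit. Reads were scaled to all aligned reads. Ratios carry exact conditional binomial 95% intervals, checked on simulated data, and a peak or window counted as called where the interval lay on one side of 1. With 1 library per tissue there is no test between tissues and no p-value. Ratios of a window to its neighbours used the conditional exact odds ratio. Tiles of 350 kb had at least 100 reads over both libraries, and those of 50 kb at least 14. Bins of 1 kb for unlisted sites held at least 1 read and lay 1 kb or more from any peak. Full values were to be given for the best ranked peak of each list per window, peaks in both lists, and peaks with other-tissue reads above flanks. All 4 peaks are given, the rank 3033 Erg peak outside that rule and after its values were seen. The planned endothelial gene list and peak sequences needed mm9 annotation or sequence and were not analysed here. Promoters are from RefSeq, with 4 of the 5 genes matched. Calculations ran in Python 3.11.15 with scipy 1.17.1, numpy 2.4.6 and pandas 2.3.3, and plots in matplotlib 3.10.9.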

Additional observations from a re-analysis of the deposited data

How the results depend on the processing

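Of 100 recomputed values, 86 kept the side of 1 on which the interval lay, if any, and stayed within the reported interval or within 1.5 times a count, and 14 did not. Recomputed values from the deposited coverage, lower bounds for the Fli1 peak and numbers of peaks carry no interval, so for them only the value could be compared. No value whose reported interval excluded 1 turned its direction. Among those whose interval included 1, 4 values crossed 1: the Tek window ratio of 0.989 became 1.01 after thinning of midbrain reads, 1.05 with windows widened and 1.08 with windows narrowed, and the midbrain density at the heart peaks over flanks went from 1.25 to 0.663 without the Kdr window. The setting without the Kdr window was not planned for that density. Of the 100 values, 21 equalled the reported value, which says little about stability. The number of heart peaks was 2 with windows narrowed by 50 kb and 2 with lists of equal length by rank, since the peaks of rank 2989 and 3033 fall outside the shorter list. With midbrain reads drawn down once to the number of heart reads, which leaves fewer reads, the pooled ratio at the 4 peaks was 5.0, the single-peak intervals included 1 (ratios of 5.0, 2.50 and 5.0 for Erg rank 2760, Erg rank 3033 and Kdr, and a lower bound of 0.916 for Fli1), and the Fli1 window ratio was 1.13 (interval 0.952 to 1.35). How many other heart-list peaks would lose their side of 1 after this step was not analysed here. With reads moved by 150 bp the lower bound for the Fli1 peak was 2.52, from 4.13. The Kdr window narrowed by 50 kb on each side had a ratio of 1.18 (interval 0.985 to 1.40). Without any 1 window the ratio over whole windows ran from 1.21 (without Flt1) to 1.31 (without Tek), and that at the heart peaks from 9.65 (without Fli1) to 22.5 (without Kdr). No values could be computed for midbrain-list peaks, because the windows hold none. No paired analysis was possible because each tissue has 1 library. At 5 heart reads per peak, differences between the 4 peaks were not detectable at this depth.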

Other observations

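The fullest 1 kb of midbrain reads in any of the windows, found by moving a 1 kb frame in steps of 100 bp, held 14 reads at chr16:95642301-95643300 (mm9) in the Erg window. This is above the lower quartile of 13 reads per midbrain-list peak, and no peak of either list lies there. How often such a frame reaches 14 reads elsewhere in the genome was not analysed here. The same frame found up to 13 midbrain reads in the Fli1 window, 12 in the Kdr window and 10 in each of the Flt1 and Tek windows. A frame free to move finds higher maxima than a fixed grid, on which no bin of these windows held more than 11. In the heart the moving frame held up to 7 reads at Fli1, 6 at Kdr, Flt1 and Erg, and 5 at Tek. The Flt1 maximum of 6 heart reads lay at chr5:148469101-148470100, which is not a listed peak.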
